A study of Mus musculus with 8 samples.

Results

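The lysosomal genes described here were 47 genes chosen by name: 25 acid hydrolases, 2 soluble cofactor proteins, 8 membrane proteins, 11 subunits of the proton pump and the transcription factor Tfeb. Each was read from the brightest of the Affymetrix probe sets that carry only its symbol. Of the 47, 45 had such a probe set among the 18193 genes represented, and all 45 passed the filter on low signals that left 10916 genes for testing. The membrane protein Cd63 and the pump subunit Atp6v0c had none and were not analysed here. Expression was measured in macrophages from the mammary tumours of 80-day-old FVB mice carrying PyMT, a viral oncogene. Cells bearing F4/80, a surface protein of macrophages, were sorted by flow cytometry and their RNA was hybridised to 8 arrays, whose signals are log2 values after RMA normalization. The E2f3-deleted group (PyMT;Lys Cre;E2F3f/f, 4 arrays, replicates A, E, F and H) carried an E2f3 gene flanked by recombination sites together with Cre recombinase under control of the lysozyme locus, whose activity extends to other myeloid cells besides macrophages. The control group (PyMT;E2F3f/f, 4 arrays, replicates B, C, D and G) carried the same flanked gene without Cre, so that effects of Cre and of E2f3 deletion cannot be told apart. No label says whether the arrays came from separate animals or from pools, and p-values therefore measure the spread between these arrays, which may be technical. The labels name each array by a letter in its title and by another in its scan file, and the title, which states the genotype, was followed. The scan file letters run from A to D on the control arrays and from E to H on the E2f3-deleted arrays. Taken by themselves they keep the groups of the titles. Only if each were read as a title letter would E2f3-deleted replicate F be a control and control replicate B an E2f3-deleted array.

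Lysosomes are the acidic compartments in which macrophages digest what they take up by phagocytosis. Soluble hydrolases reach them by a mannose 6-phosphate tag added in the Golgi, the vacuolar ATPase pumps in the protons that the hydrolases need, and heavily glycosylated membrane proteins line the compartment and carry its products out. Many of these genes share a promoter element, known as the CLEAR element, to which TFEB and its relatives TFE3 and MITF bind.

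The deletion itself could not be checked on these arrays. The brighter E2f3 probe set differed by -0.05 log2 units (95% confidence interval -0.24 to 0.15, limma adjusted p = 0.865), the other by -0.13 (interval -0.33 to 0.06, limma adjusted p = 0.613), and no label places either relative to the deleted part of the gene. The correlation of an array with the others of its group averaged 0.983 for E2f3-deleted replicate H, against 0.990 to 0.991 for the other E2f3-deleted arrays and 0.994 to 0.995 for control arrays. All 12 macrophage markers, among them Adgre1, which encodes F4/80, passed the filter, with mean log2 signals from 9.50 to 14.49. Of the 12, 11 had a difference below 0, with a median of -0.16, and their summed linear signal ran from 100223 to 105339 on the E2f3-deleted arrays and from 106162 to 115358 on the control arrays, without overlap. All 16 tested endothelial markers (of 18), all 12 fibroblast markers and all 8 tested mast cell markers (of 10) had differences above 0, with medians of 1.23, 0.60 and 1.47. So did 13 of the 16 tested epithelial markers (of 17), with a median of 0.40, while the 4 tested lymphocyte markers (of 10) had differences below 0. Over all markers of a list, the summed linear endothelial signal ran from 2680 to 12034 on E2f3-deleted arrays and from 1831 to 3670 on control arrays. The fibroblast sum ran from 12918 to 55309 on E2f3-deleted arrays and from 9795 to 23869 on control arrays, and the mast cell sum from 977 to 23167 on E2f3-deleted arrays and from 697 to 1095 on control arrays. The epithelial sum ran from 26665 to 38256 on E2f3-deleted arrays and from 25029 to 38301 on control arrays, and the lymphocyte sum from 533 to 939 on E2f3-deleted arrays and from 625 to 1739 on control arrays. In RNA of a sorted population, fewer macrophages and less RNA per macrophage cannot be told apart. The part of these other cells in the differences below was not tested.

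Most lysosomal members had lower signals on the E2f3-deleted arrays, by small amounts, and no gene passed the threshold singly. Of the 45 members, 40 (88.9%) had a difference below 0, with a median of -0.15 log2 units, against 58.7% of all genes tested, whose median was -0.03. With an unadjusted p under 0.05, 15 members had a lower and 0 a higher signal, which is 33.3% of the members against 6.9% of all genes tested for the lower direction and 7.27% for the higher. The values of the groups did not overlap, with every E2f3-deleted array below every control array, in 8 members (17.8%, against 4.22% of all genes tested), and the opposite order held in 0 members (against 4.26%). The members were chosen with earlier results of these data known. These shares therefore describe the list and are not independent evidence of a decrease. After Benjamini-Hochberg adjustment over all genes, limma called 0 of the 10916 genes (0%), and the smallest adjusted p among the members was 0.158, for Naglu. The count of 15 was 8 without control replicate C, 9 without control replicate G and 9 without E2f3-deleted replicate A, where the share of all genes was 5.65%, 4.52% and 4.76%. With the scan file letters read as title letters, 35 members had a difference below 0. In that regrouping 7 had an unadjusted p under 0.05 in the lower direction (3.18% of all genes) and 1 did not overlap (1.75% of all genes).

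**Figure D1:**
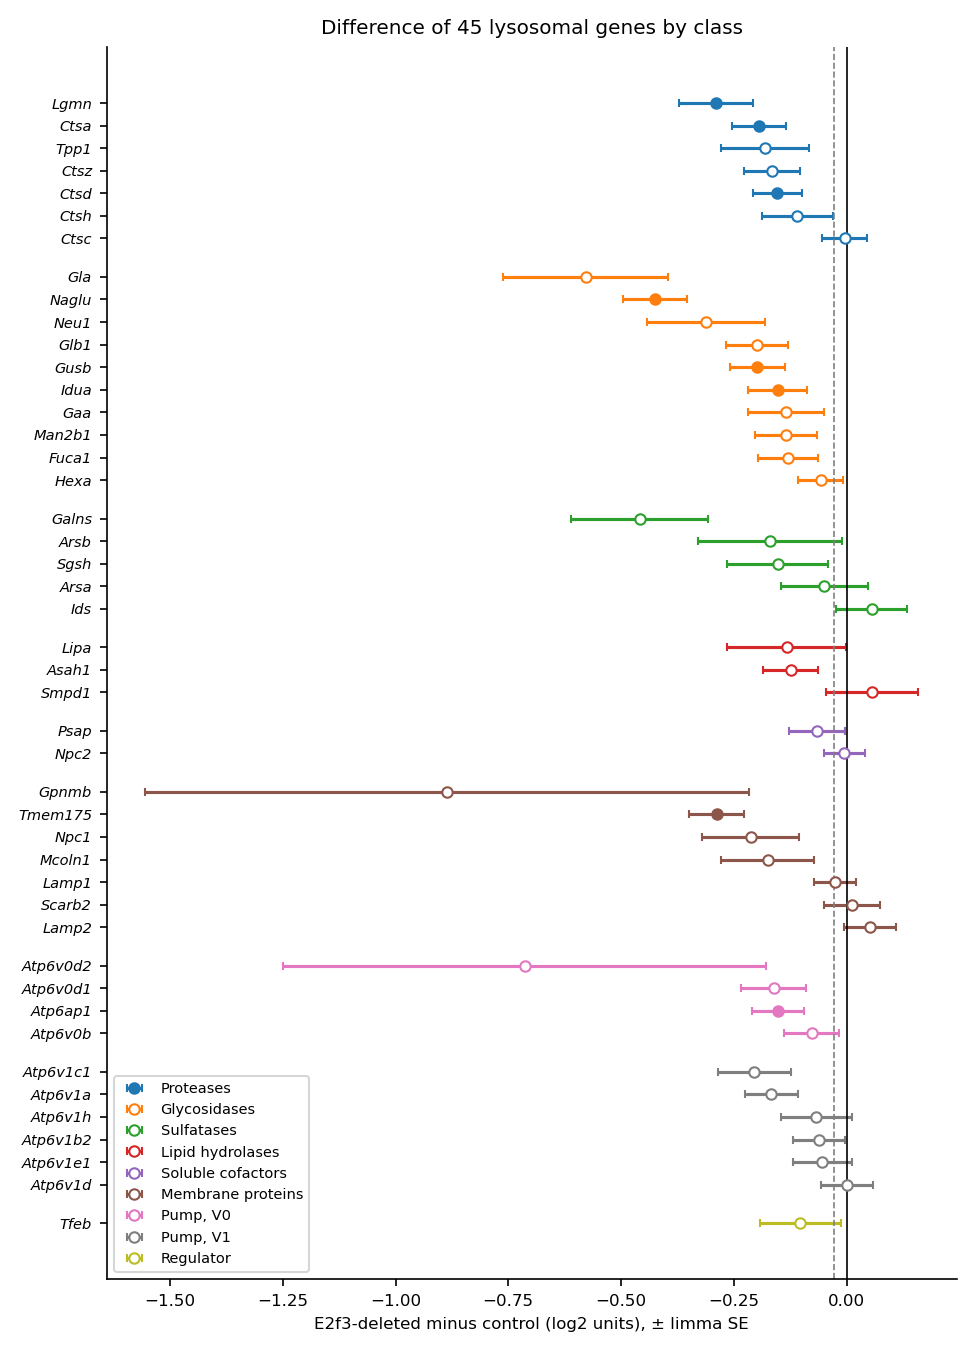
Differences of the 45 measured lysosomal genes, E2f3-deleted minus control in log2 units, with the limma standard error as bars; colours mark the classes and filled points the 8 genes whose groups did not overlap. The dashed line is the median of all genes tested, -0.03; 40 points lie below 0, and the 5 above 0 are Ids, Smpd1, Lamp2, Scarb2 and Atp6v1d.

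Every class had a median below 0, and the shares stood furthest from those of all genes tested in the hydrolases. Of all genes tested, 58.7% had a difference below 0. In the lower direction, 6.9% had an unadjusted p under 0.05 and 4.22% did not overlap. Among the hydrolases 23 of 25 (92%) had a difference below 0 (median -0.15). An unadjusted p under 0.05 was found in 11 (44%), and 6 (24%) did not overlap. In the proton pump it was 9 of 10 (90%, median -0.11), 3 (30%) at an unadjusted p under 0.05 and 1 (10%) without overlap. In the membrane proteins it was 5 of 7 (71.4%, median -0.17), 1 (14.3%) at an unadjusted p under 0.05 and the same 1 without overlap. Counts of 1 are too few to set apart from the shares of all genes. Whether the classes differ from each other was not tested. The median over the hydrolases, relative to the control mean of each gene, was -0.21, -0.16, -0.12 and -0.19 on E2f3-deleted arrays A, E, F and H, against -0.0022, 0.09, -0.09 and 0.02 on control arrays B, C, D and G. For the pump it was -0.16, -0.08, -0.13 and -0.18 on the E2f3-deleted arrays, against -0.04, 0.08, -0.02 and -0.0069 on the controls. For the membrane proteins it was -0.08, -0.09, -0.03 and -0.23 on the E2f3-deleted arrays, against -0.0038, 0.08, -0.05 and -0.03 on the controls. The E2f3-deleted arrays lay below all controls for hydrolases and pump, and the groups overlapped for membrane proteins, where replicate F lay above control replicate D.

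**Figure D2:**
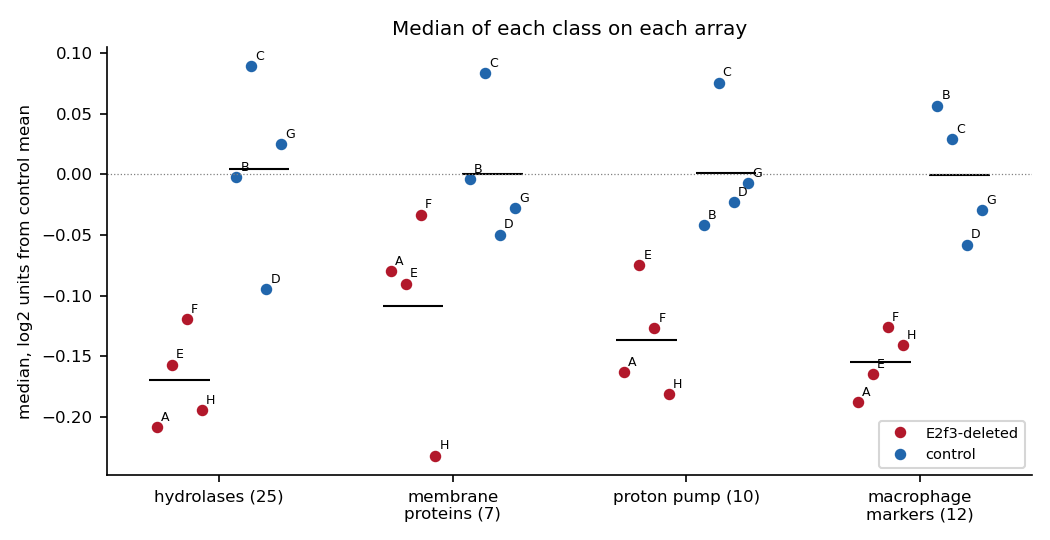
Median of the hydrolases, membrane proteins, proton pump and macrophage markers on each array, in log2 units from each gene's control mean; letters are replicates, horizontal lines group means, and the number of genes is in brackets. Control replicate C is the highest array for all 3 lysosomal classes, and control D the lowest control for hydrolases and membrane proteins.

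The lysosomal genes also varied together among the controls. Control replicate C had 3 of the 45 members below the control mean, replicate G 21, replicate B 25 and replicate D 35, while the E2f3-deleted arrays had 37 or 38 each. Control replicate D was thus close to the E2f3-deleted arrays by this count. None of the macrophage markers is a member, though Cd68 among them is itself a lysosomal membrane protein. These markers had differences of the same size as the lysosomal classes. Their medians were -0.19, -0.17, -0.13 and -0.14 on the E2f3-deleted arrays, against 0.06, 0.03, -0.06 and -0.03 on the controls. Of the 12 markers, 11 (91.7%, against 58.7% of all genes tested) had a difference below 0. An unadjusted p under 0.05 in the lower direction was found in 4 (33.3%, against 6.9%). The groups did not overlap, in the lower direction, in 4 (33.3%, against 4.22%). Shares above those of all genes were thus not particular to the lysosomal members. Relative to these markers on the same array, the hydrolase median was -0.015 ± 0.0290 in E2f3-deleted macrophages and 0.0046 ± 0.0612 in controls (SD, n = 4 each). The pump median was 0.02 ± 0.0546 in E2f3-deleted macrophages and 0.0014 ± 0.0673 in controls, and the membrane protein median was 0.05 ± 0.0924 in E2f3-deleted macrophages and 0.00090 ± 0.0473 in controls (SD, n = 4 each). These relative values differed by less than the spread between arrays in every class. The comparison does not show a shift of lysosomal genes apart from that of macrophage markers. For RNA integrity, the 3′ probe set of Gapdh minus its 5′ probe set came to 1.67 ± 0.167 on the E2f3-deleted arrays and 1.45 ± 0.0637 on the controls (SD, n = 4 each, exact permutation test, two-sided, p = 0.0571). Its part in the lysosomal differences was not tested.

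Promoters of the members were searched for the core of the CLEAR element, since many members had differences of one direction and Tfeb is one of them. The window was 250 bases before to 50 after the gene start, from RefSeq on GRCm38.p6, and 39 of the 47 members were listed. TCACGTG, read on both strands, lay in 14 of the 39 (35.9%), against 4.29% of the 27025 genes with a listed promoter. Those 27025 include genes not tested here, and among tested genes 636 had the match and 8219 did not. As the element is known from lysosomal genes and the members were chosen as such, its share among them says nothing of the differences between the groups. Its palindromic form TCACGTGA, a subset of those matches, lay in 6 (15.4%, against 1.12%). The windows shown are those of the 7 members with a match and an unadjusted p under 0.05, of the channel Mcoln1 and of Lamp1, which differed little. They run 5′ to 3′ on the strand of the gene, with TCACGTG, its other strand CACGTGA or the palindrome in capitals.
Naglu, chr11:101070000-101070046, plus strand: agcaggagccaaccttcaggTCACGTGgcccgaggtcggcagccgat
Gla, chrX:134601206-134601253, minus strand: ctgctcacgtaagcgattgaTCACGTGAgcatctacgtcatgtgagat
Lgmn, chr12:102439116-102439162, minus strand: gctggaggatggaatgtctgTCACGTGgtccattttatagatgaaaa
Ctsa, chr2:164833760-164833789, plus strand: TCACGTGAtgcagatgcTCACGTGAccaga
Ctsd, chr7:142387899-142387946, minus strand: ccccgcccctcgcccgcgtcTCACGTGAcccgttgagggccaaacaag
Glb1, chr9:114401009-114401055, plus strand: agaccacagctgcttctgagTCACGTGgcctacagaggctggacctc
Atp6v1a, chr16:44139364-44139411, minus strand: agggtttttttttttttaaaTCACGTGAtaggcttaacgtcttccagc
Mcoln1, chr8:3500427-3500500, plus strand: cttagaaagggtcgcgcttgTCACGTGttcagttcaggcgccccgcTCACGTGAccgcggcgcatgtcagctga
Lamp1, chr8:13159079-13159142, plus strand: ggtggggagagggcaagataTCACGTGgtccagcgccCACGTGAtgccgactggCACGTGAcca
The match of Naglu began 74 bases before the gene start, that of Lgmn 50 and that of Glb1 49. Ctsa had 2 palindromic matches within the window shown, Mcoln1 2 matches, and Lamp1 4 in its promoter. Gla and Ctsd each had 2 matches in the promoter, not all of them within the window shown.

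Members with and without the match had overlapping differences. The 14 with TCACGTG all had a difference below 0, from -0.58 to -0.02, with a median of -0.16 and 7 at an unadjusted p under 0.05. Of the 23 measured members with a listed promoter but no match, 18 were below 0, the median was -0.13 and 6 had an unadjusted p under 0.05. Gusb, Idua, Tmem175 and Atp6ap1 had no match in the window although their groups did not overlap, and Lamp1, with 4 matches, differed by -0.02. The 8 measured members without a listed promoter had a median of -0.16. Across all 636 tested genes with the match, 65.7% had a difference below 0 and the median was -0.05, against 58.9% and -0.03 for the 8219 tested genes without it. An unadjusted p under 0.05 in the lower direction was found in 10.8% of those 636 genes, against 6.9% of all genes tested. The difference between members with and without the match was not tested. E2F sites were searched for in the same windows as TTTGGCGC, TTTCGCGC, TTTCCCGC or TTTGCCGC on both strands, and were found in 1 member of 39, Atp6v0d1 (2.56%, against 2.60% of all genes listed). Of the 431 tested genes with an E2F site, 66.6% had a difference below 0, and their median was -0.06. The 8424 tested genes without one had 59.0% and -0.03. The shift of tested genes with TCACGTG was thus not particular to that match.

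Among the lysosomal proteases the smallest p were those of legumain and cathepsins A, D and Z. All 7 had a difference below 0 (against 58.7% of all genes tested), with a median of -0.17. Of these, 4 had an unadjusted p under 0.05 (57.1%, against 6.9% of all genes) and 0 passed after adjustment. Lgmn encodes legumain, which cuts proteins after asparagine and activates cathepsins. Its log2 signal on arrays A, E, F and H and on arrays B, C, D and G was 11.57, 11.73, 11.76 and 11.56 in E2f3-deleted macrophages, against 12.09, 12.01, 11.82 and 11.87 in controls. Every E2f3-deleted array lay below every control, with arrays F and D nearest to each other, and the difference was -0.29 (SE 0.0821, adjusted p = 0.234). Ctsa encodes cathepsin A, a carboxypeptidase that also protects beta-galactosidase and neuraminidase. Its signal was 13.13, 13.21, 13.32 and 13.24 in E2f3-deleted macrophages, against 13.43, 13.46, 13.32 and 13.46 in controls. The groups did not overlap, though array F lay below array D only in the third decimal, and the difference was -0.19 (SE 0.0602, adjusted p = 0.255). Ctsd, an aspartic protease, had 14.05, 14.06, 14.03 and 14.04 in E2f3-deleted macrophages, against 14.10, 14.29, 14.19 and 14.22 in controls. Its E2f3-deleted arrays spread by only 0.0150 (SD) and all lay below the controls, with a difference of -0.15 (SE 0.0543, adjusted p = 0.283). Ctsz, a carboxypeptidase, had a difference of -0.17 (SE 0.0617) and Tpp1, a tripeptidyl peptidase, of -0.18 (SE 0.0972), both with overlapping groups. Ctsh, an aminopeptidase, had -0.11, and Ctsc, which activates the granule proteases of other leukocytes, -0.0041, with a 95% interval of -0.12 to 0.11.

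The glycosidases, which take sugars off glycoproteins, glycolipids and glycosaminoglycans, included the member with the smallest p. All 10 had a difference below 0 (against 58.7% of all genes tested), with a median of -0.18 and a range from -0.58 to -0.06. Of these, 6 had an unadjusted p under 0.05 (60%, against 6.9% of all genes) and 3 did not overlap (30%, against 4.22%). Naglu removes N-acetylglucosamine from heparan sulfate. Its log2 signal was 9.65, 9.73, 9.67 and 9.55 in E2f3-deleted macrophages, against 9.98, 10.22, 9.997 and 10.11 in controls. The gap between the groups was wide, the highest E2f3-deleted array lying 0.25 below the lowest control, and the level was 9.65 ± 0.0735 in E2f3-deleted macrophages and 10.07 ± 0.111 in controls (SD, n = 4 each). The difference was -0.42 (SE 0.0711, adjusted p = 0.158), with a 95% interval of -0.59 to -0.26, and it ranked 19 among the 10916 genes by p. With 1 array left out it ran from -0.46 to -0.38.

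Gusb, the beta-glucuronidase, had 12.61, 12.74, 12.61 and 12.60 in E2f3-deleted macrophages, against 12.88, 12.80, 12.74 and 12.93 in controls. Replicate E of the E2f3-deleted arrays nearly reached control replicate D without passing it, and the difference was -0.20 (SE 0.0617, adjusted p = 0.255). Idua, the iduronidase of heparan and dermatan sulfate, had 9.27, 9.46, 9.46 and 9.30 in E2f3-deleted macrophages, against 9.52, 9.61, 9.47 and 9.50 in controls. Arrays E and F touched the lowest control, D, to within 0.01 log2 units, and the difference was -0.15 (SE 0.0658, adjusted p = 0.35). Gla, the alpha-galactosidase of globosides, had 8.94, 9.32, 9.24 and 8.68 in E2f3-deleted macrophages, against 9.22, 9.91, 9.72 and 9.65 in controls. Control replicate B lay below E2f3-deleted replicates E and F, and the difference was -0.58 (SE 0.183, adjusted p = 0.256), the largest of the hydrolases. Neu1, the sialidase, had 8.23, 8.39, 8.79 and 8.21 in E2f3-deleted macrophages, against 8.63, 8.83, 8.75 and 8.65 in controls. Replicate F of the E2f3-deleted arrays lay among the controls, and the difference was -0.31 (SE 0.131, adjusted p = 0.341). Glb1, the beta-galactosidase, had a difference of -0.20 (SE 0.0687), and smaller ones were those of Gaa, the acid glucosidase of glycogen (-0.13), Man2b1, a mannosidase (-0.13), Fuca1, a fucosidase (-0.13), and Hexa, the alpha chain of hexosaminidase A (-0.06).

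**Figure D3:**
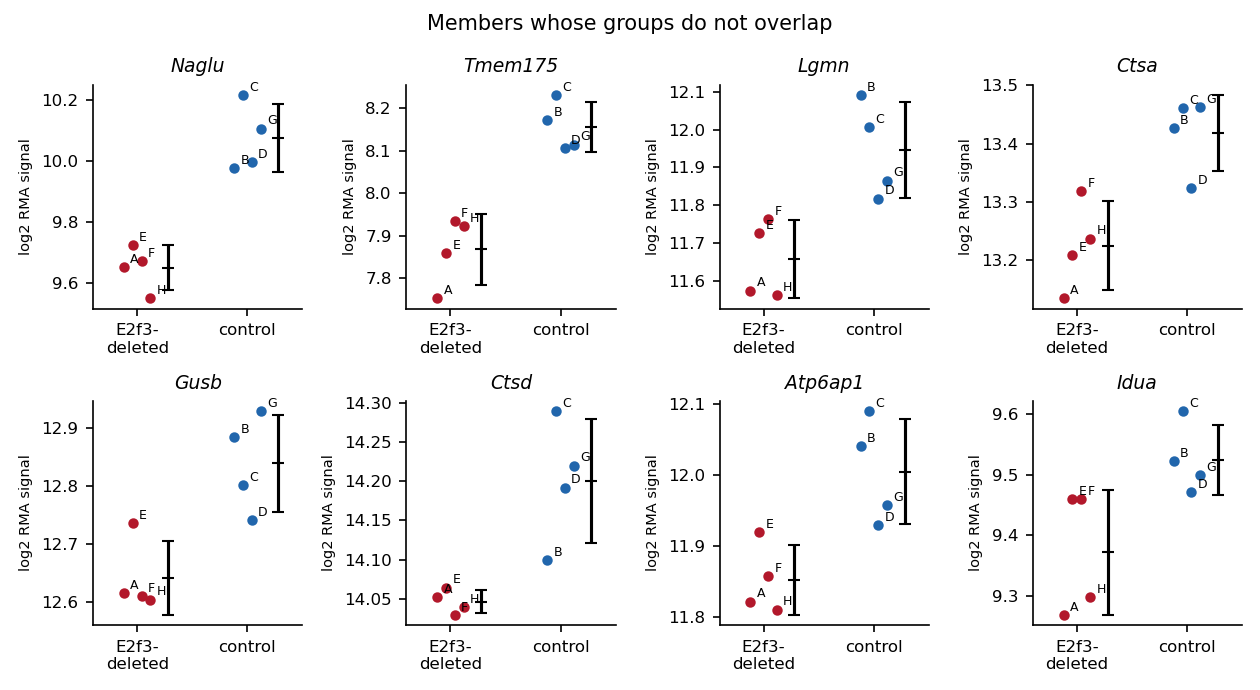
Log2 RMA signal of the 8 members whose groups did not overlap, on each E2f3-deleted array (red, left) and control array (blue, right), with replicate letters and the mean ± SD of each group (n = 4). The distance between the groups is widest in Naglu and Tmem175 and nearly closed in Ctsa, Gusb, Idua and Atp6ap1; vertical axes differ between panels and do not start at 0.

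Of the 5 sulfatases 4 had a difference below 0 (80%), 1 at an unadjusted p under 0.05 (20%). Of the 3 lipid hydrolases 2 were below 0 (66.7%), 0 with an unadjusted p under 0.05. The shares of all genes tested were 58.7% and 6.9%, and lists this short cannot be set apart from them. Galns removes sulfate from keratan sulfate and chondroitin sulfate, and its log2 signal was 8.28, 8.53, 8.52 and 7.96 in E2f3-deleted macrophages, against 8.50, 9.01, 8.74 and 8.87 in controls. E2f3-deleted replicate H was the lowest array and control replicate B lay just below E2f3-deleted replicates E and F, and the difference was -0.46 (SE 0.153, adjusted p = 0.274). Sgsh, the heparan sulfamidase, had a difference of -0.15 (SE 0.112), Arsb, arylsulfatase B, of -0.17 (SE 0.159) and Arsa, arylsulfatase A, of -0.05 (SE 0.0964). Ids, the iduronate sulfatase, had 0.06 (SE 0.078). Among enzymes of lipid breakdown, acid ceramidase (Asah1) had -0.12 (SE 0.0609), lysosomal acid lipase (Lipa) -0.13 (SE 0.132) and acid sphingomyelinase (Smpd1) 0.06 (SE 0.102), with intervals of -0.26 to 0.02, -0.44 to 0.17 and -0.18 to 0.29. The Lipa difference was -0.03 without E2f3-deleted replicate H and -0.21 without control replicate B.

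The soluble cofactors showed little difference. Psap, the precursor of the saposins that present lipids to hydrolases, had 13.65, 13.68, 13.54 and 13.68 in E2f3-deleted macrophages, against 13.67, 13.83, 13.65 and 13.66 in controls, with a difference of -0.06 (SE 0.0624). Npc2, which carries cholesterol inside the lysosome, had 14.13, 14.12, 14.13 and 14.12 in E2f3-deleted macrophages, against 14.09, 14.16, 14.09 and 14.17 in controls, and its difference of -0.0048 had a 95% interval of -0.11 to 0.10. The arrays of both groups were interleaved for both genes.

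Of the 7 measured membrane proteins, Tmem175 alone had an unadjusted p under 0.05 on its brightest probe set. Lamp1, a structural glycoprotein of the limiting membrane, had 13.77, 13.70, 13.72 and 13.74 in E2f3-deleted macrophages, against 13.78, 13.79, 13.71 and 13.74 in controls, with interleaved groups and a difference of -0.02 (95% interval -0.13 to 0.08). Lamp2, which also serves in chaperone-mediated autophagy, had a difference of 0.05 (interval -0.08 to 0.18) and Scarb2, the receptor that delivers glucocerebrosidase, of 0.01 (interval -0.13 to 0.15). Tmem175, a cation channel of the lysosomal membrane, had 7.75, 7.86, 7.94 and 7.92 in E2f3-deleted macrophages, against 8.17, 8.23, 8.11 and 8.11 in controls. All E2f3-deleted arrays lay below all controls, with a gap of 0.17 between the nearest, and the difference was -0.29 (SE 0.0607, adjusted p = 0.186). A second probe set of Tmem175 gave 0.07 (unadjusted p = 0.519), in the other direction. Npc1, which passes cholesterol out of the lysosome, had 9.48, 9.37, 9.39 and 9.15 in E2f3-deleted macrophages, against 9.57, 9.75, 9.31 and 9.61 in controls, and control replicate D lay below 3 of the E2f3-deleted arrays, with a difference of -0.21 (SE 0.107). Mcoln1, the calcium channel TRPML1, had 8.76, 8.68, 9.05 and 8.65 in E2f3-deleted macrophages, against 8.95, 9.13, 8.89 and 8.87 in controls. E2f3-deleted replicate F lay above 3 of the controls, and the difference was -0.17 (SE 0.103). Dimmer probe sets of Mcoln1 went in the same direction, at -0.16 (limma, unadjusted p = 0.0468) and -0.29 (limma, unadjusted p = 0.00205). The latter had a mean log2 signal of 6.20, and its groups did not overlap.

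The proton pump has a cytosolic sector, V1, that splits ATP and a membrane sector, V0, that passes the protons. In V1, 5 of 6 members had a difference below 0 (83.3%, median -0.06), and in V0 with its accessory subunit 4 of 4 (median -0.16), against 58.7% of all genes tested. Atp6v1a, the catalytic A subunit, had 11.51, 11.54, 11.56 and 11.67 in E2f3-deleted macrophages, against 11.65, 11.80, 11.76 and 11.75 in controls. Only E2f3-deleted replicate H reached the controls, just above replicate B, and the difference was -0.17 (SE 0.0589, adjusted p = 0.282). Atp6v1c1, the C subunit that joins the sectors, had 11.58, 11.73, 11.62 and 11.57 in E2f3-deleted macrophages, against 11.64, 11.95, 11.81 and 11.92 in controls, with control replicate B among the E2f3-deleted arrays and a difference of -0.20 (SE 0.0813, adjusted p = 0.319). The accessory subunit Atp6ap1 had 11.82, 11.92, 11.86 and 11.81 in E2f3-deleted macrophages, against 12.04, 12.09, 11.93 and 11.96 in controls. The groups did not overlap, but E2f3-deleted replicate E and control replicate D were 0.01 apart, and the difference was -0.15 (SE 0.0568, adjusted p = 0.299). Atp6v0b, of the proton-carrying ring, had 12.64, 12.77, 12.66 and 12.55 in E2f3-deleted macrophages, against 12.76, 12.79, 12.67 and 12.71 in controls. Only E2f3-deleted replicate E lay among the controls, and the difference was -0.08 (SE 0.0614). Dimmer probe sets of Atp6v0b gave -0.16 (limma, unadjusted p = 0.047) and -0.07 (limma, unadjusted p = 0.347). Atp6v0d1, the common d subunit, had -0.16 (SE 0.0723). The remaining V1 members had smaller differences, with Atp6v1h at -0.07, Atp6v1b2 at -0.06, Atp6v1e1 at -0.05 and Atp6v1d at 0.0018, whose 95% interval was -0.13 to 0.14.

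Gpnmb and Atp6v0d2 had the largest differences of all members and the least certain ones, and are given for that reason, having been chosen after their values were seen. Gpnmb is a membrane glycoprotein of lipid-laden and phagocytic macrophages, and Atp6v0d2 is the d subunit isoform of osteoclasts and some macrophages. Gpnmb had 10.66, 11.16, 10.49 and 8.21 in E2f3-deleted macrophages, against 9.87, 11.72, 11.50 and 10.97 in controls. Atp6v0d2 had 10.08, 9.85, 10.04 and 8.49 in E2f3-deleted macrophages, against 8.95, 11.20, 10.79 and 10.38 in controls. In both genes E2f3-deleted replicate H was the lowest of the 8 arrays, control replicate B the lowest control, and control replicate C the highest array. The differences were -0.89 (SE 0.669, adjusted p = 0.557) and -0.71 (SE 0.535, adjusted p = 0.555). Without replicate H they shrank to -0.25 and -0.34, and without control replicate B they were -1.27 and -1.17. Gla and Galns showed the same order at the ends, with replicate H lowest and replicate C highest, and without replicate H they were -0.46 and -0.34. Replicate H was also the array with the highest fibroblast and mast cell markers, with list medians 1.74 and 4.18 above the control mean, and their part in these values was not tested.

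**Figure D4:**
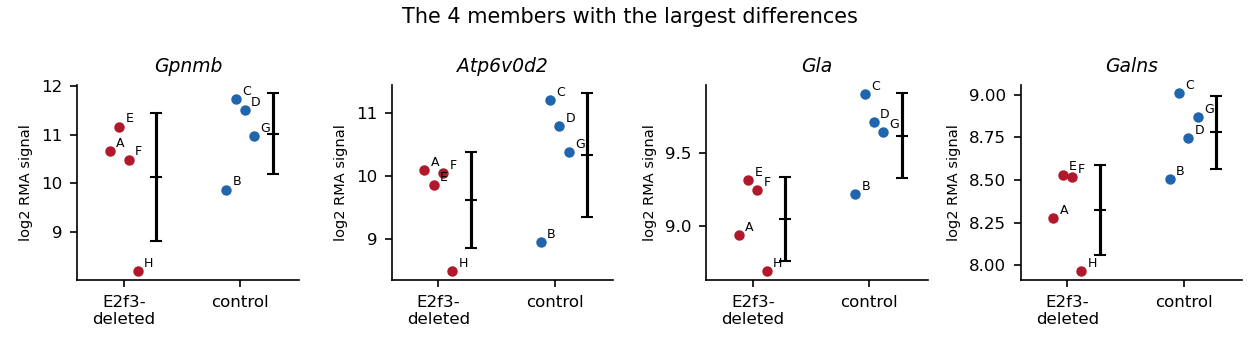
Log2 RMA signal of the 4 members with the largest differences on each E2f3-deleted array (red, left) and control array (blue, right), with replicate letters and the mean ± SD of each group (n = 4). In all 4 genes replicate H is the lowest E2f3-deleted array, replicate B the lowest control and replicate C the highest array; vertical axes differ between panels and do not start at 0.

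Tfeb, which binds the CLEAR element, had a log2 signal of 8.70, 8.55, 8.40 and 8.37 in E2f3-deleted macrophages, against 8.75, 8.63, 8.53 and 8.52 in controls. Replicates A and E lay among the controls and replicates F and H below them, and the difference was -0.10 (SE 0.0895, adjusted p = 0.613), with a 95% interval of -0.31 to 0.10. Its relatives had -0.22 (SE 0.131, adjusted p = 0.468) for Tfe3 and -0.14 (SE 0.0665, adjusted p = 0.385) for Mitf. Among 19 measured genes for relatives and regulators of Tfeb, most of them of the mTORC1, Rag, Ragulator and folliculin complexes, 18 had a difference below 0 (94.7%, against 58.7% of all genes tested), with a median of -0.08, 2 with unadjusted p under 0.05 (10.5%, against 6.9% of all genes in the lower direction) and 0 after adjustment. The smallest p belonged to Fnip2, a folliculin partner, at -0.30 (SE 0.123), and Lamtor4, a Ragulator subunit, at -0.19 (SE 0.0803).

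Differences of the members were smallest at the top of the signal scale. The 20 members with a mean log2 signal of 12 or more had a median of -0.07, with 17 below 0 and 4 at an unadjusted p under 0.05. The 11 members between 10 and 12 had a median of -0.17, with 10 below 0 and 5 at an unadjusted p under 0.05. The 14 under 10 had a median of -0.19, with 13 below 0 and 6 at an unadjusted p under 0.05. All genes tested in the same ranges had medians of -0.02, -0.04 and -0.03, and 60.1%, 62.9% and 57.4% of them were below 0. Over all ranges, 6.9% of genes tested had an unadjusted p under 0.05 in the lower direction. Different probe sets of a gene mostly agreed. Of the 85 member probe sets above the filter level, 75 had a difference below 0, and in 24 of 29 members with several such probe sets all had the same direction. The exceptions were Atp6v1d, Ids, Lamp2, Scarb2 and Tmem175. Dim probe sets of Galns (0.14), Gla (0.06) and Neu1 (0.10), all under the filter level, also lay on the other side of 0 from the brightest one, while a second dim probe set of Gla gave -0.51 (unadjusted p = 0.00274).

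**Figure D5:**
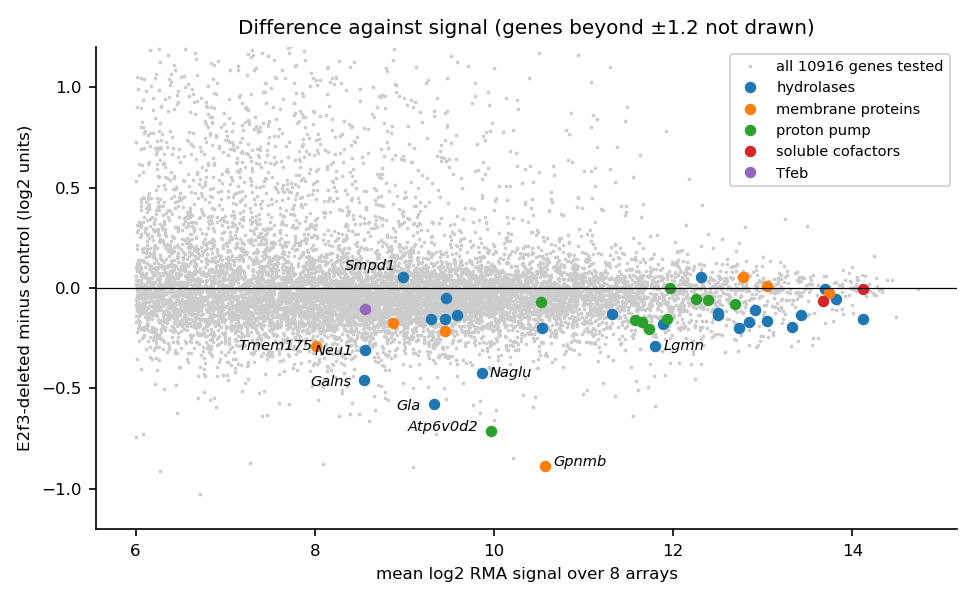
Difference between E2f3-deleted and control macrophages (log2 units, vertical) against the mean log2 RMA signal over the 8 arrays (horizontal) for all 10916 genes tested (grey) and the 45 members (coloured by class). Members below log2 12 reach down to -0.89, and those at 12 or above lie between -0.20 and 0.06; 119 genes beyond 1.2 log2 units, none of them a member, are not drawn.

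The other genes of the pathway came from lists of other lysosomal proteins, sorting, regulators of Tfeb and autophagy. Over their 118 tested genes, 92 (78.0%, against 58.7% of all genes tested) had a difference below 0, and the median was -0.08, against -0.03. An unadjusted p under 0.05 was found in 20 in the lower direction (16.9%, against 6.9%) and in 3 in the higher (against 7.27%), and 0 passed after adjustment. The difference between these shares and those of the members was not tested. Of 25 other hydrolases 22 were below 0, with a median of -0.08 and 5 at an unadjusted p under 0.05 (20%). The smallest p were those of Siae, an esterase of sialic acids, at -0.25 (SE 0.0646), Pld3, an exonuclease of the endolysosome, at -0.43 (SE 0.14), and Acp2, an acid phosphatase, at -0.20 (SE 0.0695). Among 21 other membrane proteins 15 were below 0 (median -0.10), with 3 at an unadjusted p under 0.05 (14.3%): Slc11a1, a metal transporter of phagosomes, at -0.25 (SE 0.0671), Cd68, also one of the 12 macrophage markers, at -0.29 (SE 0.0954) and the chloride transporter Clcn7 at -0.17 (SE 0.0726). Of the autophagy genes 18 of 28 were below 0 (64.3%), with a median of -0.04, both near the values of all genes tested. Map1lc3a, which encodes the LC3A protein of autophagosomes, was the one gene of this list with groups apart in the higher direction, at 11.65, 11.57, 11.61 and 11.83 in E2f3-deleted macrophages, against 11.28, 11.26, 11.45 and 11.15 in controls. All E2f3-deleted arrays lay above all controls, and the difference was 0.38 (SE 0.0838, adjusted p = 0.186). Vps18, of the complex that fuses autophagosomes with lysosomes, had -0.32 (SE 0.0803) and the conjugation enzyme Atg7 -0.29 (SE 0.105).

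Other subunits of the pump had differences in both directions, 7 of 10 below 0 with a median of -0.0078. Tcirg1, the a3 subunit of lysosomes and osteoclasts, had 11.03, 11.03, 10.94 and 10.94 in E2f3-deleted macrophages, against 11.17, 11.30, 11.23 and 11.20 in controls. The groups did not overlap, and the difference was -0.24 (SE 0.0525, adjusted p = 0.186). Atp6v0a1, the a1 subunit, had -0.29 (SE 0.0981), also without overlap. Atp6v1b1, the B subunit isoform of kidney and other epithelia, had 8.19, 8.45, 8.56 and 7.03 in E2f3-deleted macrophages, against 7.31, 7.15, 7.24 and 6.96 in controls. Replicates A, E and F lay above all controls and replicate H between control replicates C and G, and the difference was 0.89 (SE 0.313, adjusted p = 0.282). Without replicate H it was 1.23 and passed the threshold (limma, adjusted p = 0.0322). On these arrays the endothelial list medians of replicates A, E, F and H were 1.99, 1.07, 2.01 and 0.02, and the epithelial ones 0.30, 0.69, 0.75 and -0.29, and their part in the Atp6v1b1 value was not tested.

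The machinery that tags and sorts hydrolases had 12 of 15 genes below 0, a median of -0.11, 5 at an unadjusted p under 0.05 in the lower direction (33.3%, against 6.9% of all genes tested), 1 in the higher and 0 after adjustment. Gnptab, which encodes the alpha and beta chains of the enzyme that begins the mannose 6-phosphate tag, had 9.20, 9.22, 9.14 and 8.82 in E2f3-deleted macrophages, against 9.28, 9.55, 9.41 and 9.48 in controls. The groups did not overlap, and the difference was -0.34 (SE 0.103, adjusted p = 0.253). Nagpa, the uncovering enzyme that completes the tag, had 8.54, 8.85, 8.89 and 8.43 in E2f3-deleted macrophages, against 9.05, 9.15, 8.88 and 9.01 in controls, with E2f3-deleted replicate F just above control replicate D and a difference of -0.35 (SE 0.117, adjusted p = 0.275). Gnptg, the gamma chain of the first enzyme, had -0.18 (SE 0.0732). The receptor M6pr, which binds the tag, had -0.10 (SE 0.0445) without overlap, and the other receptor, Igf2r, 0.36 (SE 0.251). Sort1, encoding sortilin, a receptor that sorts some hydrolases without the tag, had 9.38, 9.35, 9.44 and 9.74 in E2f3-deleted macrophages, against 8.93, 9.38, 9.19 and 9.08 in controls, with control replicate C at the level of E2f3-deleted replicates A and E and a difference of 0.33 (SE 0.119, adjusted p = 0.29).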

How the data were processed

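RNA of F4/80+ macrophages from mouse mammary tumours was measured on 8 arrays, 4 per group. The authors deposited log2 signals made with RMA, per the submitters' processing notes; its version is not given in the sources used here. No array files were used, so that background correction could not be repeated. Of the 45101 probe sets, 34945 carried 1 symbol, 932 several, 9160 none, and 64 were controls. No pair of arrays shared over 0.317% of its values or correlated above 0.996.

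Each gene was taken from its probe set of highest mean, and genes under the 40th percentile of mean signal (log2 6.00) were left out, leaving 10916 of 18193. Groups were compared with limma 3.58.1 (lmFit and eBayes, R 4.3.3), and adjusted p-values are Benjamini-Hochberg values over all genes tested. SE, interval and adjusted p are from this fit. Differences are E2f3-deleted minus control in log2 units. The fit was tested on simulated data. The number of arrays limits the precision. The members and lists were chosen with earlier results of these data known. The genes named with values on every array were members without overlap, the 3 smallest p and the brightest of each class, Tfeb, and members with an unadjusted p under 0.05 whose probe sets differ in direction; of the other lists, up to 3 with the smallest p, with Tfe3 and Mitf. Gnptg, M6pr and Igf2r were added after their values were seen. Alternatives changed the probe set rule, filter, normalization, variance prior, array weights, grouping and covariates, or left out 1 array.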

Additional observations from a re-analysis of the deposited data

Results flagged for a closer look

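In 6 of 96 groups of 4 arrays examined, 1 array stood apart from the other 3 by more than Dixon's 95% critical value, where chance alone gives about 5%. Among E2f3-deleted arrays, Gusb was 12.74 in replicate E, against 12.60 to 12.61 in the other 3, Lipa was 12.12 in replicate H, against 12.53 to 12.57, and Atp6v0d2 was 8.49 in replicate H, against 9.85 to 10.08. Among controls, Ids was 12.13 in replicate D, against 12.31 to 12.35, Atp6v1b2 was 12.31 in replicate D, against 12.46 to 12.47, and Psap was 13.83 in replicate C, against 13.65 to 13.67.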

How the results depend on the processing

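No member passed an adjusted p of 0.05 with any 1 array left out, and 39 to 43 of the 45 members then had a difference below 0. Differences of a few hundredths of a log2 unit have no settled direction at this number of arrays. No paired analysis was possible because the replicate letters are not shared between the groups. Where values changed, the cause was not tested. With 1 array left out, the members at an unadjusted p under 0.05 in the lower direction numbered 8 to 15, those without overlap 8 to 16, the genes past adjusted p 0 to 60 (60 without E2f3-deleted replicate E, 14 without H), and the median of the other pump subunits was -0.039 to -0.0033. Fewer arrays separate more easily: the members without overlap numbered 13 without control replicate B (5.78% of all genes), 16 without control replicate D (7.93%), and 12 without E2f3-deleted replicate E (8.9%) or F (7.89%), against 8 (4.22%) with all arrays. Differences that kept their sign ran from -0.27 to -0.07 for Arsb, -0.21 to -0.08 for Gaa, -0.22 to -0.07 for Sgsh and -0.17 to -0.06 for Tfeb. Values that then changed sign ran from -0.10 to 0.0031 for Arsa, -0.037 to 0.033 for Atp6v1d, -0.031 to 0.018 for Ctsc, -0.018 to 0.0082 for Npc2, -0.021 to 0.046 for Scarb2 and -0.015 to 0.13 for Smpd1.

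The macrophage marker medians do not overlap between the groups, so that as a covariate they nearly duplicate the grouping and widen the errors (SE 0.117 for Ctsa, against 0.0602 without it), and calls lost there say nothing of stability. With this covariate, the class medians were -0.043 for all members, -0.024 for hydrolases, 0.014 for membrane proteins and -0.056 for the pump, and 1 member had an unadjusted p under 0.05. The other lists then had 10 autophagy genes below 0 (median 0.063), 14 other hydrolases, 8 TFE regulation genes (median 0.0067), and medians of -0.0050 for other membrane proteins and -0.037 for sorting genes. Differences that changed sign there were those of Acp2 (0.0046), Arsa (0.11), Atp6v1d (-0.024), Ctsa (0.012), Ctsc (0.0082), Ctsh (0.048), Lamp1 (0.014), Man2b1 (0.023), Mcoln1 (0.16), Neu1 (0.035), Tfe3 (0.056) and Tpp1 (0.047). With the endothelial covariate they were those of Arsb (0.15), Atp6v1d (-0.015), Atp6v1h (0.028), Ctsc (0.030) and Gaa (0.014), the other hydrolases had a median of -0.21, and 4 other pump subunits were below 0 (median 0.020). With the scan file letters read as title letters, 7 members had an unadjusted p under 0.05 and 1 did not overlap. In that regrouping the other pump median was -0.035, and the sign changed for Arsb (0.19), Atp6v1b2 (0.0071), Ctsc (0.016), Hexa (0.018), Lamp1 (0.0044), Psap (0.00052), Scarb2 (-0.012), Smpd1 (-0.020) and Tfeb (0.069). With the mean of all probe sets, 5 members did not overlap, and the sign changed for Atp6v1d (-0.021), Ids (-0.051) and Scarb2 (-0.047). Array weights changed it for Arsa (0.014), Atp6v1d (-0.012) and Scarb2 (-0.0024), and median-centred arrays for Atp6v1d (-0.0086).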
